A study of Rattus norvegicus with 9 samples.

Results

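The genes of the TGF-beta and BMP signalling pathways were followed in fetal rat lungs whose growth had been impaired by a lack of amniotic fluid, with and without a vesicle treatment. A list of 48 ligands, receptors, signal transducers, inhibitors and target genes was looked up by gene symbol. Of these, 47 were found in a table of 17465 genes, and the 43 with a mean of at least 1 CPM (the usual depth-scaled count unit, here on TMM-scaled library sizes) over all libraries were used. Ski was not analysed here. Transcripts were measured by sequencing of rRNA-depleted total RNA from 9 Sprague-Dawley lungs, 3 per group. The groups were untreated control lungs, untreated hypoplastic lungs and hypoplastic lungs that had received AFSC-EV (extracellular vesicles shed by stem cells of the amniotic fluid), called treated below. The series title attributes the hypoplasia to oligohydramnios. All groups share the strain and differ in no stated allele. The labels used here state no fetal age, litter, dose, route or means of producing oligohydramnios. Where nothing in the labels says that the lungs of 1 group came from separate litters, p-values measure the spread between these samples.

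In this pathway, dimeric ligands bring type I and type II receptor kinases together, and the type I kinase phosphorylates SMAD proteins, which join Smad4 and enter the nucleus to regulate genes. TGF-beta and activin ligands act mainly through Smad2 and Smad3, and BMP ligands through Smad1, Smad5 and Smad9. In the developing lung, BMP4 is made at the tips of the branching airways, while TGF-beta ligands restrain branching and drive the stroma to lay down matrix. Some latent binding proteins store TGF-beta in the matrix, and secreted antagonists such as noggin and follistatin hold ligands away from their receptors.

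The libraries held 56922660 to 88243068 estimated counts. Of the marker lists, those of lung epithelium (7 of 7 genes), endothelium (5 of 5), mesenchyme (5 of 5) and smooth muscle (5 of 5) were detected in every group. Along the first principal component, which held 33.4% of the variance, control library 2 (-54.9) and hypoplastic library 2 (62.2) lay at opposite ends, and many differences are therefore given with and without them. The summed level of the 7 epithelial markers was 3322 to 5060 CPM in control, 2654 to 2906 CPM in hypoplastic and 3103 to 3495 CPM in treated libraries. The surfactant genes Sftpb and Sftpc gave 2010 and 951 CPM of the sum in control library 2. Of the 7 markers, 4 were lower in every hypoplastic than in every control library. Ager, Scgb1a1 and Epcam (501 to 528 CPM in control, 399 to 514 CPM in hypoplastic libraries) overlapped. By Y-linked transcripts, the control group had 2 males and 1 female and each other group 1 male and 2 females. In whole lung, fewer cells of a type and less RNA per cell cannot be told apart.

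Promoter windows are shown for Tgfb3, Gdf10 and Id3, and for Id1, the close relative of Id3 whose level was nearly the same in the 3 groups. For the first 3 the hypoplastic mean was the highest of the 3 groups. That was so for other members too, among them Tgfb1 and Nog. The windows let the regulatory sequence be read beside these values. Each is 300 bases from RefSeq (assembly GRCr8), 250 before and 50 after the gene's start, written 5′ to 3′ on the gene's strand. Capitals mark CAGAC, the SMAD-binding element, on either strand (CAGAC or GTCTG), and the palindrome GGCGCC, a GC-rich motif of BMP-responsive elements. These motifs share no overlapping match in the windows shown. The windows lie at chr6:111456897-111457196 (minus strand, Tgfb3), chr16:9243262-9243561 (plus strand, Gdf10), chr5:153656041-153656340 (plus strand, Id3) and chr3:161671314-161671613 (plus strand, Id1).
Tgfb3: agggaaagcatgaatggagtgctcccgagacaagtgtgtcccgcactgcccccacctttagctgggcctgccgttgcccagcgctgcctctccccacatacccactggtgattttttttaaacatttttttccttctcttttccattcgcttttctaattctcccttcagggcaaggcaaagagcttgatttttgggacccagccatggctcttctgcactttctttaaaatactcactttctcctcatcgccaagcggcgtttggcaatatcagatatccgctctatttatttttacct
Gdf10: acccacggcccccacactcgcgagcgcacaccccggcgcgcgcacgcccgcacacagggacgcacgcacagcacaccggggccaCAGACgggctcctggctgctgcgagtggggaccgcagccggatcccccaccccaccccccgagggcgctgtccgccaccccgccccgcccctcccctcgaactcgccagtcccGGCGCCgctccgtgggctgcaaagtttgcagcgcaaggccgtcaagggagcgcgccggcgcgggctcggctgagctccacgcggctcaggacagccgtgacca
Id3: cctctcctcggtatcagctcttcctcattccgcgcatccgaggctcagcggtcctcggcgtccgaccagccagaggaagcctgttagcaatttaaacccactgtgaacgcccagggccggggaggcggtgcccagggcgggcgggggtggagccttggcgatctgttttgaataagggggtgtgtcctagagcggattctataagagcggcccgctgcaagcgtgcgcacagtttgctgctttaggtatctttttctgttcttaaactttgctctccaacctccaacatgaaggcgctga
Id1: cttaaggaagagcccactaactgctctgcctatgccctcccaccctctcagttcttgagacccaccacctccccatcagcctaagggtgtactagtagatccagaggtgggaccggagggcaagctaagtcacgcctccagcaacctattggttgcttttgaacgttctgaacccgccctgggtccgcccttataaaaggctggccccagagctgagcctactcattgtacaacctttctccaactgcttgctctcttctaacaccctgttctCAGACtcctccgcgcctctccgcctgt

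Gdf10 held 1 CAGAC and 1 GGCGCC match, Id1 held 1 CAGAC match, and the windows of Tgfb3 and Id3 held 0 of either. A window was found for 35 of the 43 members, and none for Acvr1, Acvrl1, Bmp2, Bmp7, Bmpr1b, Fst, Smad6 and Smurf1. CAGAC was present in 8 of these 35 members (22.9%) and in 50.1% of 33469 promoter windows of the same length. GGCGCC was present in 15 of the 35 (42.9%) and in 11% of all windows. GGCGCC holds only G and C, and the windows compared were not matched for base composition or expression. A member with several windows was counted by the window with most matches, while the background counted each window. These shares therefore do not measure an enrichment of either motif among the members. A match describes the letters only, and no promoter activity or SMAD binding was measured.

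None of the 43 members was called different between any pair of groups by the main test, edgeR's quasi-likelihood test with Benjamini-Hochberg adjustment over all 12966 genes at an adjusted p under 0.05. That test called 0.00771% of all genes (1 gene, not a member) in hypoplastic against control lungs, and 0% of them in either comparison of treated lungs. The smallest adjusted p of a member was 0.316, 0.826 and 0.998 in these comparisons. At an unadjusted p under 0.05, 5 of 43 members (11.6%) stood in hypoplastic against control lungs, where 12.4% of all genes did. In treated against hypoplastic lungs it was again 5 members (11.6%, all genes 5.56%). In treated against control lungs it was 1 member (2.33%, all genes 4.17%). Both counts of 5 include Gdf10, which reached the 1 CPM limit only through its high hypoplastic libraries and so had to differ. With a filter of 1 CPM in 3 libraries, which Gdf10 does not pass, both counts were 4. Library values did not overlap for 6, 5 and 3 members, that is 14%, 11.6% and 6.98%, beside 16.7%, 9.81% and 9.39% of all genes. In hypoplastic against control lungs 3 of the 6 were higher (6.98%, all genes 7.68%) and 3 lower (6.98%, all genes 9.05%). Of the 5 in treated against hypoplastic lungs, 1 was higher (2.33%, all genes 5.07%) and 4, with Gdf10 among them, lower (9.3%, all genes 4.74%). Of the 3 in treated against control lungs, 2 were higher (4.65%, all genes 4.37%) and 1 lower (2.33%, all genes 5.02%). Most of the members' shares thus lay near or below those of all genes. In treated against hypoplastic lungs the share lower without overlap, Gdf10 included, was above that of all genes. The unadjusted count in treated against hypoplastic lungs was also above the share of all genes. It was 1 without treated library 2 and 2 when either treated library 1 or hypoplastic library 2 was left out. The count of 5 in hypoplastic against control lungs was 2 without control library 2, 3 without hypoplastic library 2 and 7 without control library 3. For treated against control lungs the count of 1 was 0 without control library 2, 3 without control library 3, and 2 without any of control library 1, hypoplastic library 2 or treated library 1.

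The members' log2 fold changes were small. The median was 0.07 in hypoplastic against control lungs, with 29 of 43 above 0, and 35 of 43 lay within 0.5 of 0. The median of all genes tested was 0.01, with 51.9% above 0. In treated against hypoplastic lungs the median was -0.05 with 27 of 43 below 0 (all genes -0.01), and in treated against control lungs it was 0.03 (all genes 0.0028). The first 2 comparisons share the hypoplastic libraries. Without control library 2 and hypoplastic library 2, the first median was -0.04, on the other side of 0.

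**Figure D1:**
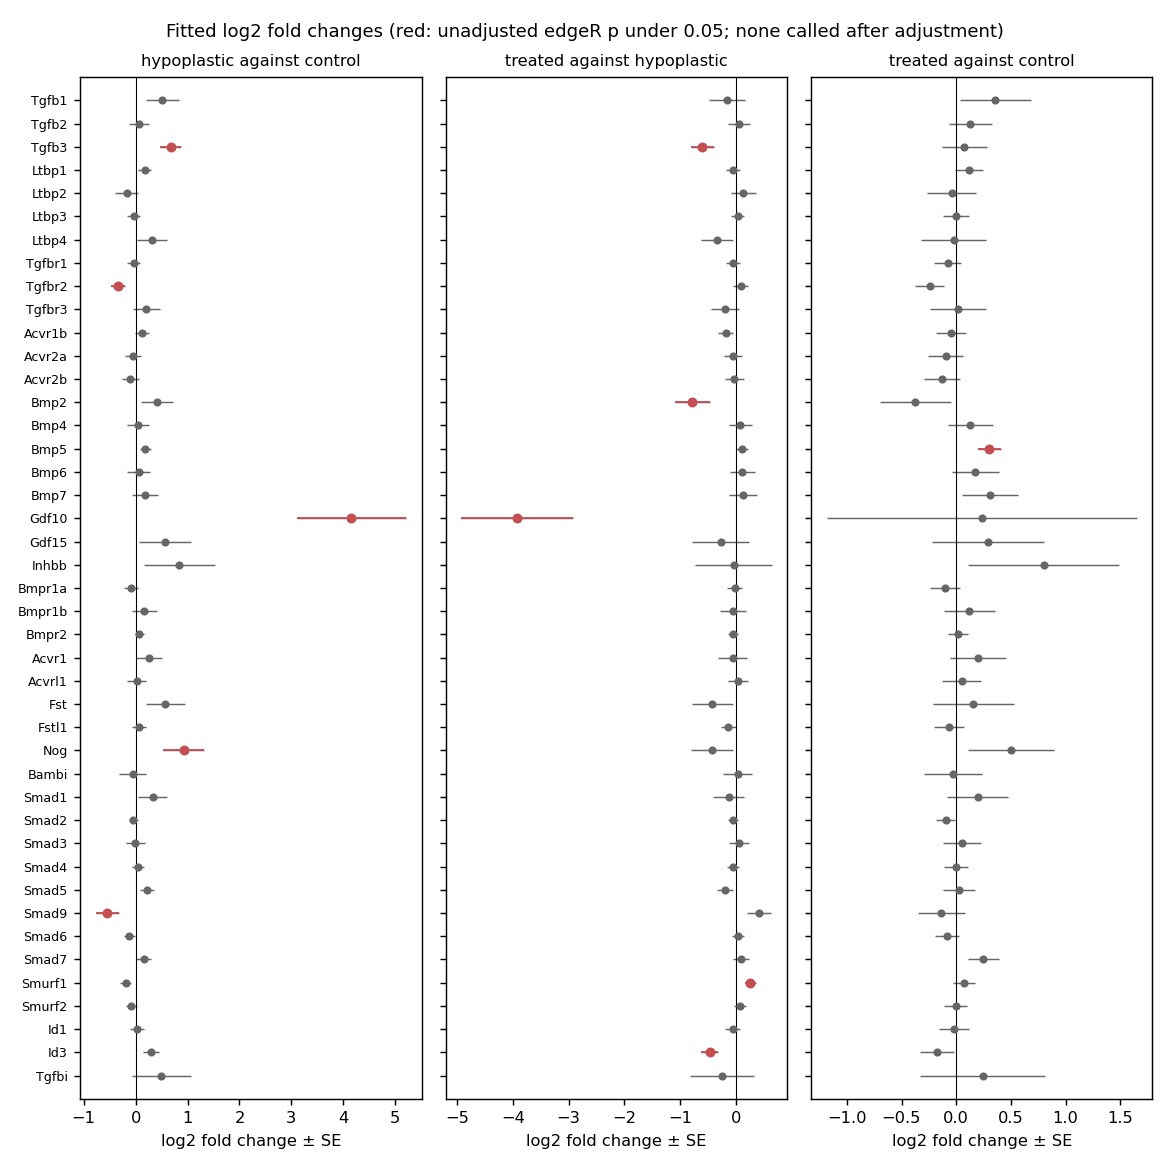
Fitted log2 fold changes (x axis, points, with SE as whiskers) of the 43 members (y axis) in the 3 comparisons, each panel with its own x scale; red points have an unadjusted edgeR p under 0.05. Most points lie within 0.5 of 0, and Gdf10 stands apart at 4.16 and -3.92 in the first 2 panels.

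Tgfb3, 1 of the 3 TGF-beta ligands, was higher in every hypoplastic library than in any control or treated library. Its level was 10.3, 7.65 and 10.8 CPM in control libraries 1 to 3, 14.4, 18.2 and 13.2 CPM in hypoplastic libraries and 9.27, 8.47 and 12.5 CPM in treated libraries. The lowest hypoplastic value thus lay just above the highest treated one. The log2 fold change was 0.67 (SE 0.207) from control to hypoplastic lungs, with an unadjusted edgeR p of 0.00915 and an adjusted p of 0.323. Treated lungs differed from hypoplastic lungs by -0.60 (SE 0.206), with an edgeR adjusted p of 0.867. Against control, treated lungs stood at 0.07 (SE 0.207). Without control library 2 and hypoplastic library 2 the first difference was 0.39 (edgeR adjusted p 0.877) and the second -0.45.

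The other TGF-beta ligands overlapped between groups. Tgfb1, the ligand best known for matrix deposition, was at 35.6, 17.4 and 45.7 CPM in control, 36.5, 61.4 and 43.4 CPM in hypoplastic and 35.4, 39.6 and 51.7 CPM in treated libraries. Its lowest value was in control library 2 and its highest in hypoplastic library 2, the libraries at the ends of the first principal component. Tgfb2 ran from 63.4 to 101.2 CPM over the 9 libraries, and both its extremes were hypoplastic. The latent binding proteins, not all of which bind TGF-beta, had log2 fold changes of -0.17 to 0.31 in hypoplastic against control and -0.34 to 0.13 in treated against hypoplastic lungs, with SE up to 0.295. Among them Ltbp4, a factor in elastic fibre assembly, varied most, from 178.2 CPM in control library 2 to 455.5 CPM in control library 3. Ltbp3 stayed between 90.2 and 110.7 CPM.

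Tgfbr2, the type II receptor that binds TGF-beta first, was lower in all hypoplastic than in all control libraries. It was at 208.7, 225.7 and 242.6 CPM in control, 170.9, 186.8 and 179.1 CPM in hypoplastic and 189.3, 155.8 and 226.7 CPM in treated libraries. The treated group overlapped both others. The log2 fold change in hypoplastic against control lungs was -0.33 (SE 0.134, edgeR unadjusted p 0.0329, adjusted p 0.372), and it was -0.37 without the library 2 of both groups. It was 0.09 (SE 0.134) in treated against hypoplastic lungs, and in treated against control lungs -0.24 (SE 0.134), with a range of -0.39 to -0.12 when treated library 3 or treated library 2 was left out. The type I receptor Tgfbr1 ranged from 70.2 to 98.3 CPM, with both extremes among the controls. The co-receptor Tgfbr3 (betaglycan), which presents TGF-beta2, ran from 102.6 CPM in control library 2 to 207.1 CPM in hypoplastic library 2. The activin receptors Acvr1b, Acvr2a and Acvr2b differed by -0.10 to 0.13 in hypoplastic against control lungs, each with overlapping libraries.

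Gdf10, which encodes BMP3b, a divergent member of the BMP family, had the largest difference of any member and the most uneven values. Its level was 0.337, 0.0892 and 0.190 CPM in control, 8.81, 2.02 and 0.326 CPM in hypoplastic and 0.184, 0.251 and 0.308 CPM in treated libraries. These values rest on 22, 5 and 14 counts in control, 578, 124 and 18 in hypoplastic and 14, 21 and 21 in treated libraries. Hypoplastic library 3 was within the range of the controls, and only hypoplastic libraries 1 and 2 were high. The gene reached its mean of 1.39 CPM only through these 2 libraries, so the tests that follow do not count as support for a difference. In hypoplastic against control lungs the fitted log2 fold change was 4.16 (SE 1.06), with an edgeR adjusted p of 0.316, while DESeq2, which called 1.62% of all genes there, called it with an adjusted p of 0.00080. In treated against hypoplastic lungs it was -3.92 (SE 1.004), with an edgeR adjusted p of 0.826 and a DESeq2 adjusted p of 0.00712, where DESeq2 called 0.107% of all genes. Limma voom gave 3.34 and -2.97 and called neither. Without hypoplastic library 1 the edgeR values were 2.5 and -2.27. Without hypoplastic library 3 they were 4.685 and -4.452, with edgeR adjusted p of 0.0386 and 0.0423, so that edgeR then called the gene. That setting drops the hypoplastic library within the control range, and edgeR then called 45 and 44 of all genes. These calls of Gdf10 therefore add no support. Against control, treated lungs differed by 0.23 (SE 1.42), and it was -0.31 with a sex term.

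Markers of heart muscle were also high in the 2 hypoplastic libraries with high Gdf10, and markers of cartilage in 1 of them. The summed level of 7 heart muscle genes was 241.5 CPM in hypoplastic library 1 and 113.5 CPM in hypoplastic library 2. In hypoplastic library 3 it was 4 CPM, and it was 4.18 to 18.05 CPM in control and 4.21 to 10.25 CPM in treated libraries. Most of the sum in hypoplastic libraries 1 and 2 was Actc1 (111 and 47 CPM), Myh6 (70.9 and 28.2 CPM) and Myl7 (37.6 and 22.7 CPM). Nppa, on the same list, was at 0 in hypoplastic library 1 and 4.56 CPM in hypoplastic library 2. Cartilage markers (5 of 6 in the table) summed to 1006 CPM in hypoplastic library 1 and to 123.3 to 524.3 CPM in the other 8 libraries, most of it Col2a1, a collagen of cartilage. Matn1, a defining cartilage matrix gene, was at 9.20 CPM in hypoplastic library 1 and at 0 in 4 libraries. The part of these tissues in the Gdf10 values was not tested.

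**Figure D2:**
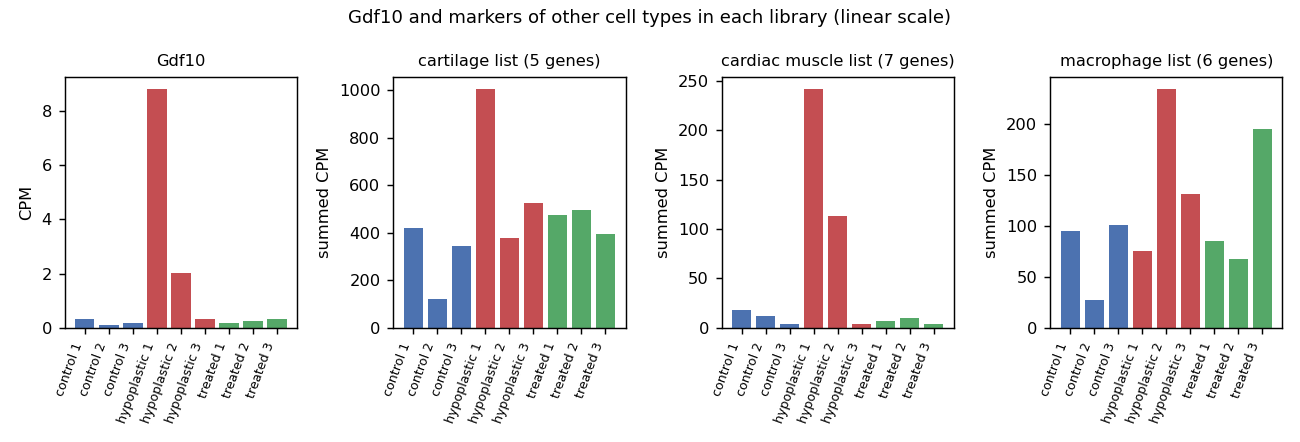
Level of Gdf10 (CPM) and summed levels (CPM) of the cartilage, cardiac muscle and macrophage marker lists in each of the 9 libraries (x axis), bars coloured by group and starting at 0. Gdf10 and the cardiac list are high in hypoplastic libraries 1 and 2, the cartilage list in hypoplastic library 1, and the macrophage list in hypoplastic library 2 and treated library 3.

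The remaining BMP and GDF ligands had log2 fold changes of 0.04 to 0.57 in hypoplastic against control lungs, all above 0 and none called. Bmp2, a ligand of the airway epithelium and the vessels, was low throughout. It was at 2.10, 1.43 and 1.07 CPM in control, 1.78, 2.73 and 1.56 CPM in hypoplastic and 1.30, 1.05 and 1.19 CPM in treated libraries. All 3 treated values lay below all hypoplastic ones but overlapped the controls. The treated lungs differed from hypoplastic lungs by -0.78 (SE 0.315, edgeR adjusted p 0.896), and hypoplastic from control lungs by 0.41 (SE 0.312). Against control, treated lungs stood at -0.37 (SE 0.320), or -0.06 without control library 1 and -0.59 without control library 3. Without the library 2 of both groups the first 2 values were -0.50 and 0.09. Bmp5, which is expressed in lung mesenchyme, was at 32.2, 28.9 and 32.6 CPM in control, 34.5, 33.0 and 39.0 CPM in hypoplastic and 38.0, 36.9 and 40.5 CPM in treated libraries. Both groups of hypoplastic lungs lay above the controls without overlap, by log2 fold changes of 0.19 (SE 0.106, edgeR adjusted p 0.496; 0.11 without hypoplastic library 3) and 0.30 (SE 0.106, edgeR adjusted p 0.998). Treated and untreated hypoplastic lungs differed in Bmp5 by 0.12 (SE 0.105).

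Bmp4, the ligand of the branching tips, overlapped fully between groups. It was at 42.4, 38.4 and 64.6 CPM in control, 41.7, 54.3 and 54.1 CPM in hypoplastic and 62.6, 46.1 and 50.2 CPM in treated libraries. Its highest and lowest values were both controls. Bmp6 ran from 6.90 to 12.1 CPM, with both extremes in hypoplastic lungs. Bmp7, a ligand of epithelia and of the pleural mesothelium, ran from 8.81 CPM in control library 2 to 18.2 CPM in treated library 1. Its log2 fold changes were 0.18 (SE 0.255), 0.13 (SE 0.254) and 0.31 (SE 0.254) in the 3 comparisons, in the order used above. Gdf15, a stress-induced member of the family, ranged from 3.26 CPM in control library 2 to 26.6 CPM in hypoplastic library 2, and the other 7 libraries held 13.1 to 20.45 CPM.

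Of the nodal and activin subunits only Inhbb, the activin beta B chain, passed 1 CPM. It was at 21.1, 16.7 and 41.8 CPM in control, 15.3, 98.6 and 28.9 CPM in hypoplastic and 31.95, 23.3 and 83.6 CPM in treated libraries. The high values were those of hypoplastic library 2 and treated library 3, 1 in each hypoplastic group. These were also the libraries with the highest sums of 6 macrophage markers, at 233.9 and 194.9 CPM beside 26.9 to 131.5 CPM in the others, all 6 detected. The part of macrophages in the Inhbb values was not tested. Log2 fold changes were 0.84 (SE 0.690) in hypoplastic against control and -0.04 (SE 0.683) in treated against hypoplastic lungs.

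Below the 1 CPM limit lay 4 members. Inhba, the activin beta A chain, averaged 0.991 CPM and was just outside, while Gdf10 at 1.39 CPM was just inside. Inhba was at 0.582, 0.482 and 0.529 CPM in control, 2.52, 2.06 and 0.326 CPM in hypoplastic and 0.698, 1.29 and 0.441 CPM in treated libraries. Hypoplastic libraries 1 and 2 were the highest, as for Gdf10, treated library 2 came next, and hypoplastic library 3 was the lowest of all. Chrd (chordin, a BMP trap) averaged 0.985 CPM and Grem1 (gremlin, another BMP antagonist) 0.380 CPM. Chrd was higher in every hypoplastic library (1.17 to 1.45 CPM) than in any control (0.637 to 0.981 CPM) or treated library (0.593 to 0.999 CPM). Its values rest on 45 to 89 counts, and edgeR called neither difference (adjusted p 0.457 and 0.896). Of all genes tested, 7.68% were higher without overlap in hypoplastic than in control lungs, and 4.74% lower without overlap in treated than in hypoplastic lungs. Nodal, the ligand of early embryonic patterning, had 2 counts in hypoplastic library 1 and 0 in the other 8.

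Bmpr2, the type II receptor mutated in hereditary pulmonary arterial hypertension, was at 189.9, 197.8 and 200.2 CPM in control, 194.1, 218.5 and 203.5 CPM in hypoplastic and 191.7, 208.9 and 193.6 CPM in treated libraries. Its groups overlapped, and its SD within groups was 0.07 on the log2 scale, beside 0.18 to 0.36 for the other BMP receptors. Bmpr1a, the main type I receptor of lung epithelium, ran from 83.5 to 121 CPM and Bmpr1b from 1.70 to 2.96 CPM. Acvrl1 (ALK1), a receptor of endothelial cells, ran from 60.8 to 92.8 CPM, while the 5 endothelial markers summed to 681 to 917.1 CPM over all libraries. Acvr1 ran from 11.1 to 21.6 CPM. The log2 fold changes of the 5 BMP receptors were -0.08 to 0.26 in hypoplastic against control and -0.06 to 0.03 in treated against hypoplastic lungs, with SE up to 0.256.

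Nog, which encodes noggin, a secreted trap of BMP2 and BMP4, had the most even control values of the extracellular inhibitors. It was at 2.30, 2.37 and 2.28 CPM in control, 2.61, 7.85 and 2.77 CPM in hypoplastic and 3.397, 3.503 and 2.91 CPM in treated libraries. All 6 hypoplastic lungs, treated or not, lay above all controls, but hypoplastic library 2 alone was far above the rest. In hypoplastic against control lungs the log2 fold change was 0.93 (SE 0.393, edgeR unadjusted p 0.0407, adjusted p 0.389), and without hypoplastic library 2 it was 0.21. It was 0.50 (SE 0.394, edgeR adjusted p 0.998) in treated against control lungs. The difference between treated and hypoplastic lungs, -0.43 (SE 0.382), became 0.29 without hypoplastic library 2.

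Fst (follistatin, an activin trap) ran from 2.44 CPM in control library 2 to 9.37 CPM in hypoplastic library 2, with the groups overlapping. Fstl1, a secreted BMP antagonist needed for lung and airway development, was at 596.7 to 811.6 CPM in all libraries, with log2 fold changes of 0.07 and -0.13 in the first 2 comparisons. Bambi, a decoy receptor without a kinase, ranged from 11.8 CPM in control library 2 to 27.4 CPM in control library 3. Its log2 fold changes were within 0.06 of 0 in all 3 comparisons, with SE up to 0.266.

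**Figure D3:**
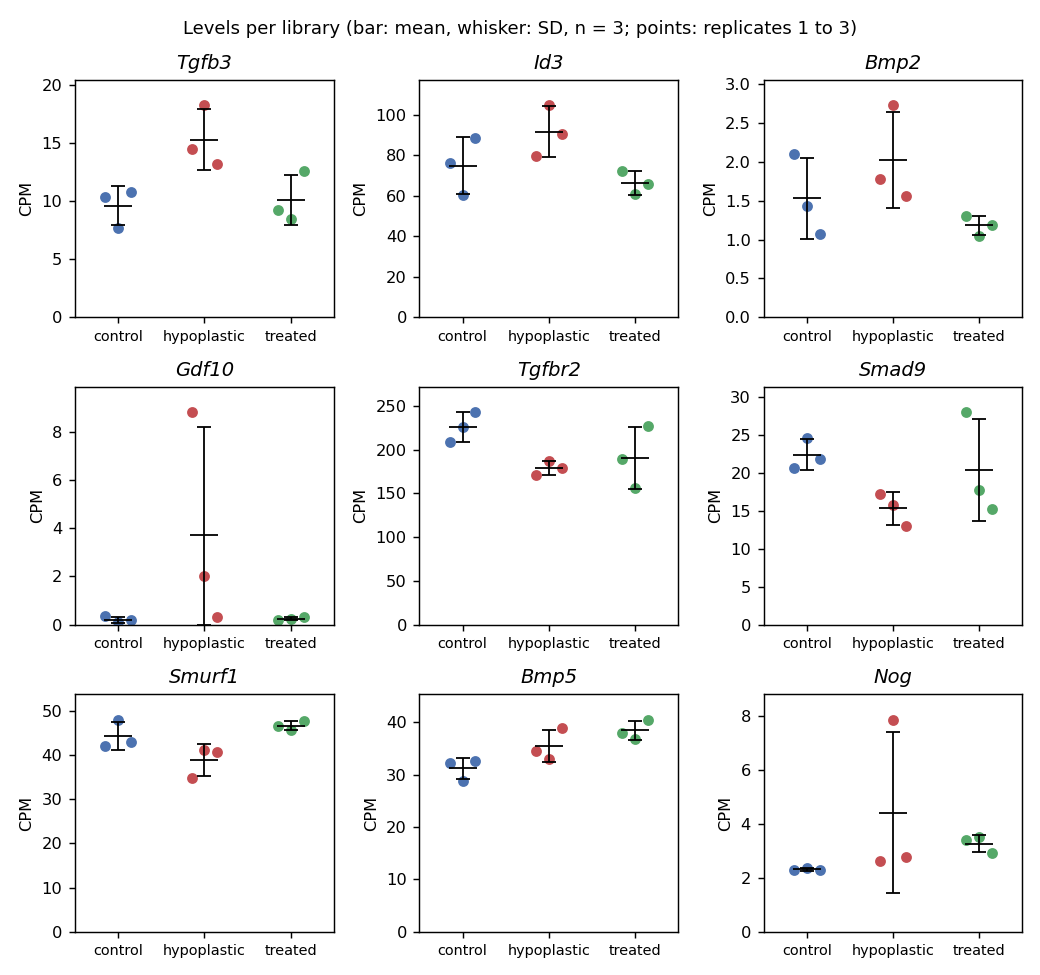
Level (CPM, y axis from 0) of 9 members in the control, hypoplastic and treated groups, with 1 point per library, the mean as a bar and the SD (n = 3) as a whisker, cut at 0 for Gdf10. The hypoplastic points lie above the others for Tgfb3 and below the controls for Tgfbr2, Smad9 and Smurf1, and a single hypoplastic point is high for Nog.

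Smad9, a BMP-responsive SMAD (also called SMAD8), was lower in every hypoplastic than in every control library. It was at 20.6, 24.6 and 21.8 CPM in control, 17.2, 15.7 and 13.0 CPM in hypoplastic and 27.9, 17.8 and 15.3 CPM in treated libraries. Among treated lungs, library 1 was the highest of all and library 3 was within the hypoplastic range. The log2 fold change in hypoplastic against control lungs was -0.55 (SE 0.218, edgeR unadjusted p 0.0318, adjusted p 0.369), and -0.49 without the library 2 of both groups. Treated lungs differed from hypoplastic lungs by 0.41 (SE 0.217, edgeR adjusted p 0.901), or 0.11 without treated library 1. From control lungs they differed by -0.14 (SE 0.216), and 0.03 without treated library 3. The epithelial marker sums given above were also lowest in the hypoplastic group, as were Smad9 and Tgfbr2, and the part of epithelial content in these values was not tested.

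The other SMADs overlapped between hypoplastic and control lungs, with log2 fold changes between -0.04 and 0.33. Smad1 and Smad5, which carry BMP signals with Smad9, were at 45.0 to 101 CPM and 43 to 69.4 CPM, each lowest in control library 2. Smad2 was the steadiest SMAD by its SD within groups (0.06 on the log2 scale), at 60.5 to 68.8 CPM. Its treated values (62.6 to 64.2 CPM) lay below all controls (66.2 to 68.5 CPM), a log2 difference of -0.10 that edgeR did not call (adjusted p 0.998). Smad3, the other TGF-beta SMAD, ran from 129.2 CPM in control library 2 to 201.8 CPM in treated library 3. Smad4, the partner common to both branches, ran from 144.5 to 182.3 CPM.

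Smurf1, a ubiquitin ligase that marks SMADs and receptors for degradation, was lower in the hypoplastic libraries than in either other group. It was at 42.1, 48.0 and 43.03 CPM in control, 34.7, 41.2 and 40.7 CPM in hypoplastic and 46.5, 45.7 and 47.6 CPM in treated libraries. The groups were separated by less than 1 CPM between control library 1 and hypoplastic library 2. The log2 fold change was -0.19 (SE 0.103, edgeR adjusted p 0.478; -0.12 without hypoplastic library 1) in hypoplastic against control and 0.26 (SE 0.103, edgeR adjusted p 0.896) in treated against hypoplastic lungs. Against control, treated lungs differed by 0.07 (SE 0.103), or 0.13 without control library 2. Smurf2, its relative, ran from 127.4 to 164 CPM with overlapping groups. Smad6 and Smad7, the inhibitory SMADs that are themselves induced by the pathway, were at 30.8 to 38.8 CPM and 114.5 to 175.1 CPM. Smad7 differed by 0.16 (SE 0.142), 0.09 (SE 0.142) and 0.25 (SE 0.142) in the 3 comparisons, with edgeR adjusted p of 0.676 or more. The first was 0.05 without control library 2 and 0.34 without control library 3, the second 0.02 without treated library 2, and the third 0.14 and 0.43 without the same control libraries.

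Id3, an inhibitor of helix-loop-helix factors induced by BMP signals, was lower in every treated than in every hypoplastic library. It was at 76.0, 60.3 and 88.6 CPM in control, 79.7, 104.7 and 90.5 CPM in hypoplastic and 72.2, 60.9 and 65.8 CPM in treated libraries. The controls spanned the lower part of the hypoplastic range and all of the treated range. Treated lungs differed from hypoplastic lungs by -0.47 (SE 0.155, edgeR unadjusted p 0.0136, adjusted p 0.859). Hypoplastic lungs differed from controls by 0.29 (SE 0.155, edgeR adjusted p 0.471), which was 0.05 without the library 2 of both groups. The value was -0.18 (SE 0.155) in treated against control lungs, or -0.31 without control library 2 and -0.04 without control library 3. Its paralogue Id1 was at 42.9, 46.8 and 52.0 CPM in control, 43.8, 52.6 and 48.8 CPM in hypoplastic and 53.2, 39.5 and 47.0 CPM in treated libraries, with full overlap. Whether Id1 and Id3 differed in their response was not tested. Tgfbi, a matrix protein named for its induction by TGF-beta, spread widely in control (31.98 to 204.4 CPM) and treated lungs (67.5 to 224.8 CPM) and less in hypoplastic lungs (143.6 to 181.2 CPM).

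**Figure D4:**
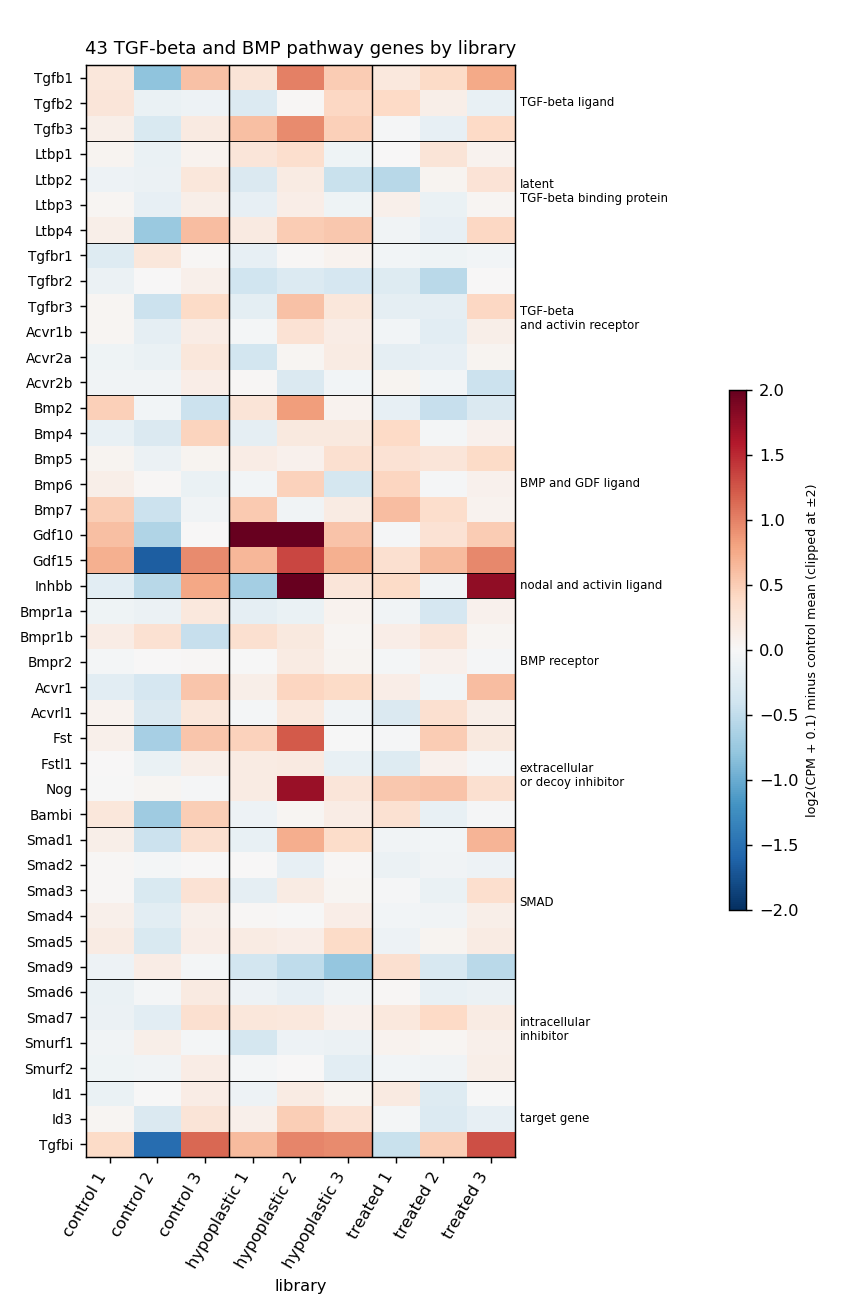
Heat map of log2(CPM + 0.1) minus the control mean, clipped at ±2, for the 43 members (rows, by role) in the 9 libraries (columns, by group). Control library 2 is the lowest for 20 members and hypoplastic library 2 the highest for 16, and Gdf10 is clipped in hypoplastic libraries 1 and 2.

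Libraries of the same group differed from each other along many members at once. Of the 43 members, 20 (46.5%) had their lowest value in control library 2, where 22% of all genes tested did, and 16 (37.2%) had their highest value in hypoplastic library 2, where 16.1% of all genes did. The summed level of 5 mesenchymal markers, all detected, was also lowest in control library 2 (1210 CPM) and highest in hypoplastic library 2 (9492 CPM), and 1887 to 3508 CPM in the others. Most of the sum in hypoplastic library 2 was Col1a1 (5820 CPM) and Col1a2 (3230 CPM), both also on the target list described below. Pdgfra was likewise lowest and highest in these libraries (35.6 and 333 CPM). Tcf21 (22.3 and 21.8 CPM) was at neither extreme, and Tbx4 was lowest in control library 2 (47.5 CPM) but not highest in hypoplastic library 2 (91.3 CPM). The part of stromal content in the members' values was not tested. Without these 2 libraries, 1 member had an unadjusted edgeR p under 0.05 in hypoplastic against control lungs. On the log2 scale the SD within groups ran from 0.06 for Smad2 to 1.32 for Gdf10. After Gdf10 the most variable members were Inhbb (1.04), Tgfbi (0.95) and Gdf15 (0.88).

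Relations across the 9 libraries were examined for 5 pairs, with two-sided exact permutation tests and Benjamini-Hochberg adjustment over the 5. The permutations ran over all 9 libraries without regard to group. Their p-values therefore do not separate differences between groups from variation between lungs of a group. Tgfb1 and Tgfbi varied together, with Pearson's r of 0.911 (exact permutation p 0.0016, adjusted 0.00799) and Spearman's rho of 0.933 (exact permutation p 0.00075, adjusted 0.00375). Without control library 2 and hypoplastic library 2, the extremes of Tgfb1, r was 0.838 over 7 libraries. The same 2 libraries held the lowest and highest mesenchymal sums, and also the lowest and highest macrophage sums (26.9 and 233.9 CPM). The part of either in this relation was not tested. Bmp4 and Id1 had r of 0.736 (exact permutation p 0.0257, adjusted 0.0644) and rho of 0.783 (exact permutation p 0.0172, adjusted 0.0431), and r of 0.842 without control libraries 2 and 3. Id1 and Id3 gave r of 0.572 and rho of 0.483, with adjusted exact permutation p of 0.106 and 0.242. Id1 and Smad6 gave 0.545 and 0.417 (adjusted exact permutation p 0.106 and 0.27). Inhba, which lay below the 1 CPM limit, and Fst gave 0.662 and 0.5 (adjusted exact permutation p 0.0862 and 0.242). Their r was 0.415 without hypoplastic libraries 1 and 2. For Id1 and Id3 r was 0.582, and for Id1 and Smad6 0.431, without treated libraries 1 and 2.

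**Figure D5:**
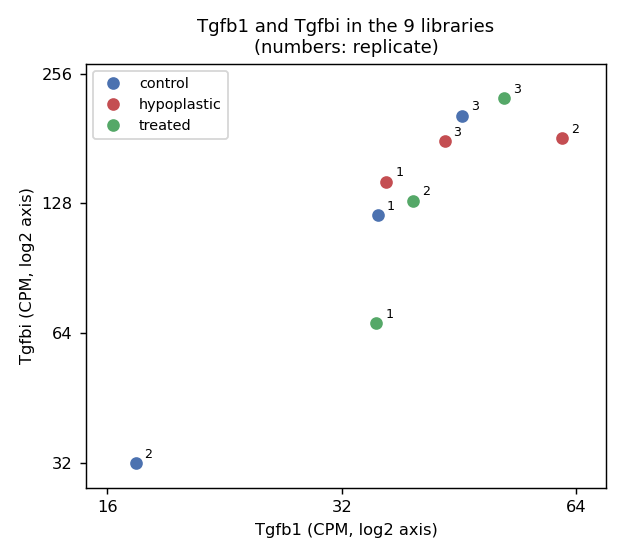
Level of Tgfbi against that of Tgfb1 (CPM, both axes on a log2 scale), with 1 point per library coloured by group and numbered by replicate. The points run from control library 2 (17.4 and 31.98 CPM) to the upper right, and each group has points among the other groups'.

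Other genes of the pathway came from a list of ligands, regulators and targets. Of 70 other pathway genes on the list, 59 were tested, and edgeR called 0 in each comparison. In hypoplastic against control lungs DESeq2 called 5 of them (8.47%, all genes 1.62%). It called 0 between treated and hypoplastic lungs and 1 (1.69%, all genes 0.108%) between treated and control lungs. At an unadjusted edgeR p under 0.05, 9 (15.3%) were higher and 5 (8.47%) lower in hypoplastic than in control lungs, beside 6.67% and 5.69% of all genes. In treated against hypoplastic lungs 1 (1.69%) was higher and 3 (5.08%) lower (all genes 2% and 3.56%), and in treated against control lungs 4 (6.78%) were higher and 3 (5.08%) lower (all genes 1.67% and 2.5%). The median log2 fold changes of the 59 were 0.21, -0.07 and 0.10, beside 0.01, -0.01 and 0.0028 for all genes.

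The 21 target genes had a median of 0.68 in hypoplastic against control lungs, with 18 of 21 above 0 and 6 higher at an unadjusted edgeR p under 0.05 (28.6%, all genes 6.67%). The 23 other TGF-beta and activin genes had a median of 0.02 and the 15 other BMP genes one of 0.08. Without control library 2 and hypoplastic library 2, an alternative chosen after seeing the data, the median of the target genes was -0.02, with 10 of 21 above 0 and 1 higher at an unadjusted p under 0.05 (4.76%, all genes 3.05%). Over the 59 genes it was then -0.08 with 1 higher at that p. In treated against hypoplastic lungs 6 of the 59 (10.2%, all genes 3.32%) were higher at that p without these libraries. The target list shares Col1a1 and Col1a2 with the mesenchymal marker list and Acta2 and Tagln with the smooth muscle list. Mesenchymal sums were lowest and highest in those 2 libraries, and smooth muscle sums were 178.9 CPM in control library 2 and 248.5 to 810.4 CPM elsewhere. The part of stromal and muscle content in these values was not tested.

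Itgb6, the epithelial integrin chain that releases TGF-beta from its latent form, was lower in both groups of hypoplastic lungs. It was at 66.4, 110.5 and 64.85 CPM in control, 37.15, 44.7 and 40.9 CPM in hypoplastic and 48.5, 48.2 and 47.3 CPM in treated libraries. Neither group overlapped the controls, and the treated values all lay above the hypoplastic ones. The log2 fold change was -0.98 (SE 0.192) in hypoplastic against control lungs, with an edgeR adjusted p of 0.316 and a DESeq2 adjusted p of 0.00167. In treated against control lungs it was -0.75 (SE 0.191, edgeR adjusted p 0.998). Without control library 2 and hypoplastic library 2 these values were -0.75 and -0.45. The epithelial marker sums lay in the same order by group, and their part in this value was not tested.

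Among target genes, Cdkn1a (a cell cycle inhibitor) was at 39.7 to 66.1 CPM in control, 67.1 to 116.8 CPM in hypoplastic and 62.7 to 83.8 CPM in treated libraries. Its log2 fold change in hypoplastic against control lungs was 0.91 (SE 0.245, edgeR adjusted p 0.316, DESeq2 adjusted p 0.0333). Cdkn2b, another cell cycle inhibitor, differed in the opposite direction by -1.06 (SE 0.308, edgeR adjusted p 0.316, DESeq2 adjusted p 0.0404). Junb, an immediate early gene, differed by 0.85 (SE 0.238, edgeR adjusted p 0.316, DESeq2 adjusted p 0.0403). Without control library 2 and hypoplastic library 2 the values were 0.62 for Cdkn1a, -0.82 for Cdkn2b and 0.51 for Junb. Dcn (decorin, a proteoglycan that binds TGF-beta) was at 147 CPM in hypoplastic library 2, 13.25 CPM in hypoplastic library 1 and at most 4.82 CPM elsewhere. Its log2 fold change in hypoplastic against control lungs was 4.44 (SE 1.218, edgeR adjusted p 0.316, DESeq2 adjusted p 0.0237). Without the library 2 of both groups it was 1.55. In treated against hypoplastic lungs Dcn differed by -3.59 (SE 1.155, edgeR adjusted p 0.859). Bmp8a was under 1 CPM in all libraries, and lower in hypoplastic (0.0362 to 0.147 CPM) than in control libraries (0.339 to 0.803 CPM).

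Ccn2, a matricellular target of TGF-beta and YAP, did not overlap between treated and control libraries. It was at 43.1, 23.4 and 50.04 CPM in control, 64.5, 107.5 and 61.8 CPM in hypoplastic and 111.1, 166 and 60.02 CPM in treated libraries, so that both groups of hypoplastic lungs lay above the controls. The log2 fold change in treated against control lungs was 1.53 (SE 0.394), with an edgeR adjusted p of 0.998 and a DESeq2 adjusted p of 0.0366, and it was 1.27 without control library 2 and hypoplastic library 2. Id4 and the BMP antagonist Chrdl1 were lower in every treated than in every hypoplastic library, by log2 fold changes of -0.53 (SE 0.193) and -1.54 (SE 0.504), with edgeR adjusted p of 0.896 and 0.859. Chrdl1 was low, at 2.88, 1.13 and 0.977 CPM in hypoplastic libraries 1 to 3 and 0.434 to 0.719 CPM in treated libraries. Pmepa1, a feedback inhibitor of TGF-beta signalling, was higher in every treated than in every hypoplastic library, by 0.55 (SE 0.210, edgeR adjusted p 0.896). Its treated values (5.87 to 7.85 CPM) overlapped the controls (4.05 to 6.28 CPM).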

How the data were processed

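Gene expression was measured in 9 lungs, grouped by sample title. The authors deposited estimated counts per gene without normalization between libraries: 19.5% of the nonzero values were whole (no tolerance). The submitters' processing notes name rn7 and DESeq2. Which aligner and counter were used, and how shared reads and strand were handled, is not given in the sources used here. Gene IDs were matched to symbols with a RefSeq table (GRCr8), and 17314 (99.1%) matched. Transcript lengths were not used here, so levels are not compared between genes.

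Counts were rounded and tested with edgeR 4.0.16 (R 4.3.3; TMM, filterByExpr, quasi-likelihood, all 9 libraries in 1 fit, 3 group terms), which kept 12966 genes and was tested on simulated data. SE is the absolute log2 fold change divided by the square root of F. DESeq2 1.42.0 and limma 3.58.1 (voom) were alternatives, with other size factors and filters, a replicate block, a sex term, removal of 6 ribosomal and 7SL rows, only the 6 libraries compared, and libraries left out. Log2 CPM for the heat map, relations and SD used a pseudocount of 0.1 CPM. Library pairs of 1 group differed by more than counting error (chi-square per degree of freedom 136.7 or more), and all were kept.

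The members and lists were chosen with earlier results of these data known. Fold changes are given for members called by edgeR or DESeq2, with an unadjusted edgeR p under 0.05, or without overlap of libraries and p under 0.1, and for at least 5 members by smallest p in each comparison, and a further few for role. Other pathway genes are named at an unadjusted p under 0.05, at most 6 per comparison by smallest p, not all of which are reported here. Marker lists were of lung epithelium, endothelium, mesenchyme, smooth muscle, mesothelium, cartilage, cardiac and skeletal muscle, red cells, neutrophils, macrophages, liver and thymus.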

Additional observations from a re-analysis of the deposited data

How the results depend on the processing

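Among settings other than leaving out libraries, edgeR called 0 members in each comparison, and limma voom also called 0. DESeq2 called 1 member (Gdf10) in hypoplastic against control and 1 (Gdf10) in treated against hypoplastic lungs, and 212, 15 and 16 of all genes in the 3 comparisons. The number of all genes called in hypoplastic against control lungs, 1 in the main analysis, was 2 with the replicate block, 4 with only the 6 libraries compared and 2 without control library 2 and hypoplastic library 2. In treated against control lungs the last setting gave 1. Members at an unadjusted p under 0.05 numbered 3 with the sex term and 1 without both libraries in hypoplastic against control lungs, and in treated against control lungs 2 with only the 6 libraries compared and 2 without both libraries. With 1 library left out, members called numbered 0 to 1 in hypoplastic against control, 0 to 1 in treated against hypoplastic lungs and 0 for treated against control, the member being Gdf10 without hypoplastic library 3. All genes called numbered 0 to 45, 0 to 44 and 0 to 1, and members at an unadjusted p under 0.05 numbered 2 to 7, 1 to 5 and 0 to 3. The cause of these shifts was not tested.

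The members' median log2 fold change ran from 0.0209 to 0.1535, -0.08477 to 0.008806 and -0.07908 to 0.08899 with 1 library left out, each setting within 0.138 (1 SD between libraries) of the main value. Several members changed sign, among them Nog in treated against hypoplastic lungs, which was -0.4311 in the main analysis. In hypoplastic against control lungs Bmp7 ran from -0.01311 to 0.4691. In treated against hypoplastic lungs Tgfbr2 ran from -0.05078 to 0.2189, Nog from -0.7025 to 0.2852 and Bmp7 from -0.01277 to 0.3136. In treated against control lungs Tgfb3 ran from -0.1128 to 0.1853, Gdf10 from -0.07673 to 0.7677 and Smad9 from -0.4351 to 0.03279. Without both libraries Nog was 0.2849 in treated against hypoplastic lungs, and Tgfb3 -0.06441 and Gdf10 -0.07741 in treated against control lungs. Gdf10 was -0.3102 there with the sex term.

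The labels do not state that equal numbers share a litter or day. Correlations of deviations from group means were -0.282 to 0.227 for the 9 same-numbered pairs, of which 3 exceeded 0.1. For the 18 others they were -0.439 to 0.389, and 7 exceeded 0.1. The replicate block left 0 members called in each comparison.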

Other observations

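The marker lists not described above gave these sums over the list. Neutrophil genes (7 of 7 in the table) summed to 6.63 to 12.95 CPM in control, 53.9 to 95.4 CPM in hypoplastic and 18.8 to 79.6 CPM in treated libraries, so that both groups of hypoplastic lungs lay above the controls. Smooth muscle genes (5 of 5) summed to 178.9 to 494.9 CPM in control, 447.7 to 810.4 CPM in hypoplastic and 248.5 to 688.7 CPM in treated libraries. Mesothelial genes (2 of 4) summed to 12.8 to 77.8 CPM over all libraries, highest in hypoplastic library 2. Skeletal muscle genes (4 of 5) summed to 9.09 to 16.9 CPM and red cell genes (4 of 5) to 3113 to 10630 CPM, the highest in control library 2. Thymus genes (3 of 3) summed to 0.999 to 2.86 CPM. Liver genes (4 of 4, with Fgb at 0 in all libraries) summed to at most 0.118 CPM, except 5.76 CPM in control library 2, nearly all of it Apoa1.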
